A study of Mus musculus with 2931 samples.

Results

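The transcripts of 8 genes that handle lipid or water were described in the endothelium of the mouse lung, cell by cell: Aqp1, Cd36, Lpl, Fabp4, Fabp5, Pparg, Cyp4b1 and Abhd2. They are 8 of the 18072 genes of the count table. The genes were selected on their measured levels across subtypes, ages and hyperoxia in these same cells, so their patterns over those contrasts are given as a description. The p-values printed for them below come from fits across all genes and support nothing about the choice. Sex is the one contrast on which they were not selected.

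The study profiled 2931 endothelial cells (EC, the lining of blood and lymph vessels) of the distal lung, sorted by flow cytometry and sequenced as full-length libraries on plates, from 10 mice. Mice in normal air were taken before birth at E18.5 and after birth at P1, P7 and P21, where the numbers are embryonic and postnatal days. A further group at P7 had hyperoxia, that is, air enriched in oxygen. Every group had 1 female and 1 male mouse. Strain, genotype, oxygen dose and its duration are not given in the sources used here. Nor is it stated whether a mouse name stands for 1 animal, so every p-value rests on the spread between named mice, 2 per group. That spread was pooled over the groups of a fit and moderated across genes. The submitters gave each cell 1 of 10 subtype labels, and Early and Late Car4- capillaries were joined here as Car4- capillaries.

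The endothelial cells of a lung capillary pass water and take up lipid from the blood. Aqp1 forms a water channel. Lpl splits the triglyceride of lipoproteins on the capillary wall, where Gpihbp1 holds it, and Cd36 takes up long-chain fatty acids at the cell surface. Fabp4 and Fabp5 carry fatty acids inside the cell, and Pparg is a nuclear receptor that fatty acids can activate and that is best known from fat cells. Cyp4b1 is a cytochrome of lung that hydroxylates fatty acids and foreign compounds, and Abhd2 is a lipid hydrolase of the alpha/beta hydrolase family. Alveolar capillaries hold a large Car4+ cell type that lies against the air space and a more general Car4- type.

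The sequence before the start of transcription is shown for the 4 genes with the most marked patterns below: Aqp1 and Abhd2, which were higher after birth, and Cd36 and Cyp4b1, the most abundant of the 8 in capillaries. The windows were read from RefSeq (build GRCm38.p6), are written 5′ to 3′ on the strand of the gene and end before the first base of an annotated exon. Aqp1 is chr6:55336049-55336298 on the plus strand, Cd36 is chr5:17835897-17836146 on the minus strand (a start inside the annotated gene), Cyp4b1 is chr4:115647724-115647971 on the minus strand and Abhd2 is chr7:79273016-79273198 on the plus strand. For Cyp4b1 and Abhd2, 2 and 67 bases that lie in an exon were left out. Capitals mark each match to 1 of 6 searched motifs on either strand.
Aqp1: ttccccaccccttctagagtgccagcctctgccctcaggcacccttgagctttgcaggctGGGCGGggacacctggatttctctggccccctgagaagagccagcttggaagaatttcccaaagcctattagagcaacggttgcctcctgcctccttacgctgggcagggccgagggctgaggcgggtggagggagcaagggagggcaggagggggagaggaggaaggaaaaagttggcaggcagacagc
Cd36: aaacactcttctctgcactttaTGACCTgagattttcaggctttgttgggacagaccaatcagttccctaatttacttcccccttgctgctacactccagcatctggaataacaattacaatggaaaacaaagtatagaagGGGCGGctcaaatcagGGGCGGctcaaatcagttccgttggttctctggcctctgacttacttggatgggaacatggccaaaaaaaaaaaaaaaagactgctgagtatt
Cyp4b1: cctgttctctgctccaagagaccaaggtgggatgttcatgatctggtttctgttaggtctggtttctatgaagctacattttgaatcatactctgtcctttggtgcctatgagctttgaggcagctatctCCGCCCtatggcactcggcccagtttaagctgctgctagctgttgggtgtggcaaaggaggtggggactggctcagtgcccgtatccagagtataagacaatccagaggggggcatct
Abhd2: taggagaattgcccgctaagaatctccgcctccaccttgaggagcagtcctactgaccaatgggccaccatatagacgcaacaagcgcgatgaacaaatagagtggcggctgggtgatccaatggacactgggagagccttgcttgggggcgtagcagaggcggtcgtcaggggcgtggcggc

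Shares of motifs were taken over 32851 mouse promoters, in windows of the 250 bases before a start and on both strands. AGGTCA, which nuclear receptors bind, occurred in 14% of them. ACGTG, the core of hypoxia response elements, occurred in 16.6%, and GGGCGG, which factors of the Sp family bind, in 32.7%. TGTTTAC, a forkhead motif, was found in 3.17%, TATAAA, for the basal machinery, in 12.4%, and the antioxidant response element TGACNNNGC in 10.2%. GGGCGG was the motif found most often: Aqp1 held it at base -190 from the start, Cd36 at -109 and -93, Cyp4b1 at -120 and Abhd2 at -59, inside the exon bases left out above. AGGTCA was found in Cd36 alone of these 4, at -228 and on the opposite strand, where it reads TGACCT. Pparg, with 3 listed starts, held AGGTCA before 2 of them. A match is a description of letters, and 5 of the 8 genes had an entry; Fabp4, Fabp5 and Lpl had none.

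The annotated positions (GENCODE M21, build GRCm38) are chromosome 6, 55336432 to 55348555 for Aqp1; chromosome 5, 17781690 to 17888801 for Cd36; and chromosome 8, 68880491 to 68907448 for Lpl. Fabp4 (10204088 to 10208576) and Fabp5 (10012548 to 10016607) lie on chromosome 3. Pparg is on chromosome 6, 115360951 to 115490399, Cyp4b1 on chromosome 4, 115624725 to 115647723, and Abhd2 on chromosome 7, 79273199 to 79365508. An antisense transcript, Gm44079, overlaps Pparg, and Gm44639 and Gm39041 on the same strand and Gm24224 on the opposite strand overlap Abhd2. Pseudogenes Cyp4b1-ps1, Cyp4b1-ps2 and Fabp5l2 are annotated. How the counting treated strand and shared reads is not given in the sources used here, so the levels of these 4 genes are uncertain to that extent.

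A cell had 42095 to 2967985 reads, with a median of 621406. All 8 endothelial markers were found in the cells of each subtype and mouse. The cells came from 9 sequencing runs and 3 sort gates (2694 from CD31, 224 from a gate named mesench, 13 from CD45). No 2 cells shared a name or a count profile. Levels below are CPM, the reads of a gene scaled to a total of 1000000 reads, in the summed cells of a mouse and subtype; they are given where a mouse had at least 4 cells, and tests use at least 8. One set of cells stood apart before any comparison. Late Car4- cells of mice younger than P21 had 760 to 951 genes at the median after every cell was thinned to 50000 reads, against 2237.5 to 3254 in Early Car4- cells of P1 and P7. At P21 the Late cells of the male mouse had 1138 and those of the female mouse 2074.5. The Late cells of mice younger than P21 were 44 of the 206 Car4- cells of the P7 female mouse. They were 21 of 181 in the P1 female mouse and 6 of 132 in the P7 hyperoxia male mouse. The only Car4- sum of E18.5 is 13 cells of the female mouse, 12 of them Late, and it enters no test.

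The subtype with the highest mean level was not the same for all 8 genes. Per kilobase of transcript, the scale on which genes can be compared, Cyp4b1 in Car4+ capillaries was the highest level of the 8 genes, with a mean of 2329 CPM per kilobase over the 6 normal-air mice. Cd36 was near 444 in Car4- and 432 in Car4+ capillaries on that scale. Fabp5 and Fabp4 had their highest means in venous EC, at 475 and 384. Mean Aqp1 lay at 343 in venous EC and 338 in arterial EC I, against 250 in Car4- and 254 in Car4+ capillaries. The venous mean included 1 mouse at 3046 CPM, and the Car4- mean included the E18.5 female sum at 32.9 CPM. By the median over mice, venous EC had 501 CPM of Aqp1, below Car4- (566) and Car4+ capillaries (601), and arterial EC I had 997. Lpl was 43.5 in Car4- capillaries, Abhd2 was at most 21 in any subtype, and Pparg reached 20.9 in lymphatic EC and no more than 4.9 elsewhere. Because the subtype labels come from clustering these cells, no test is given between subtype labels within an age. The birth comparison and the interaction terms below set labels beside each other and are descriptions for the same reason.

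**Figure D1:**
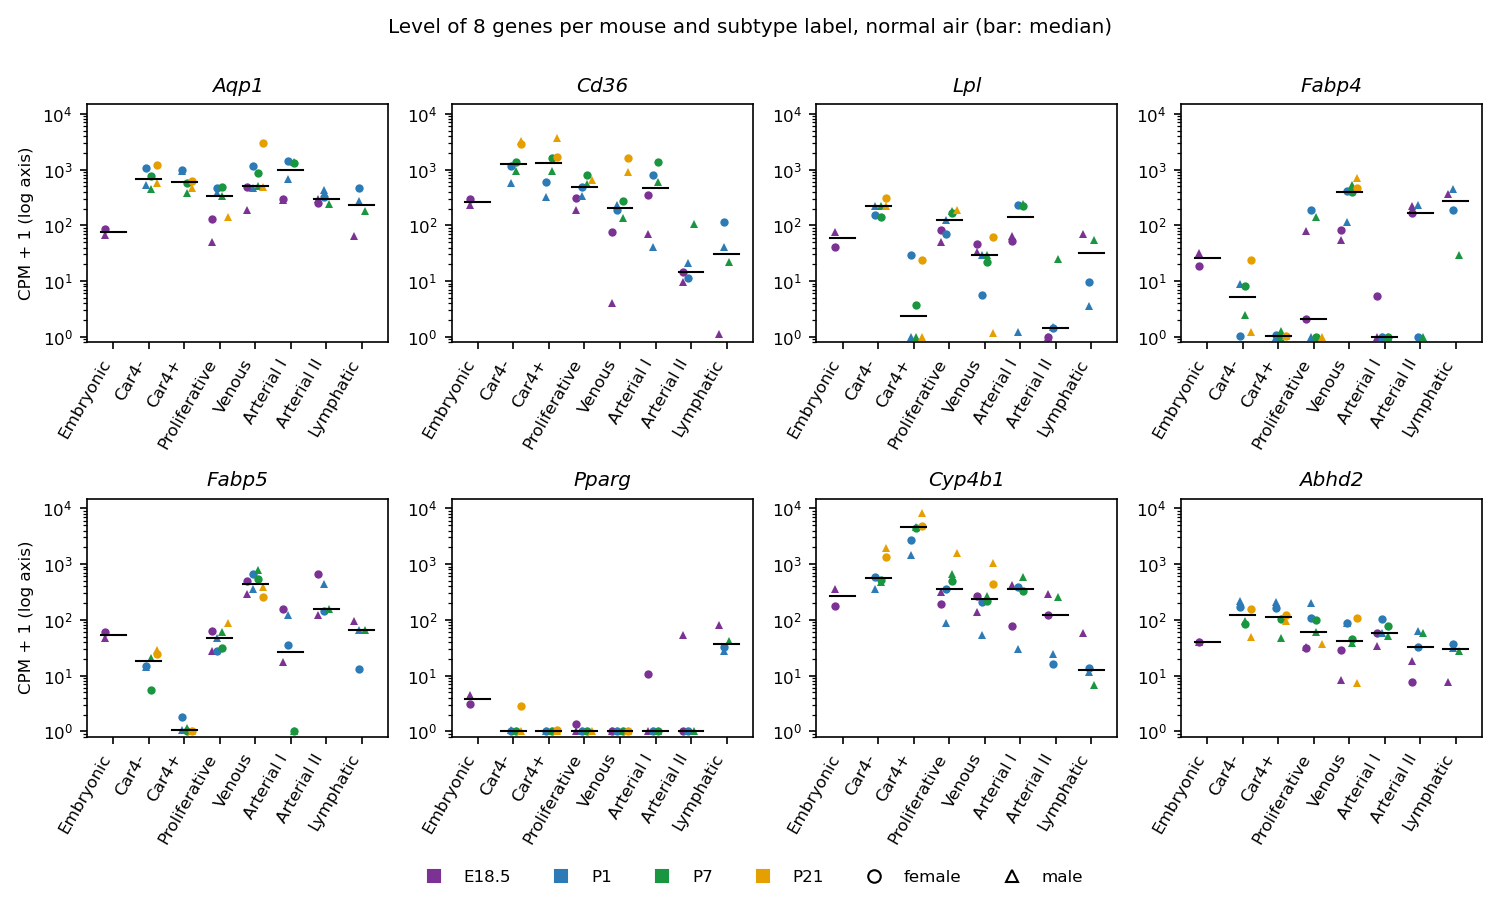
Levels of the 8 genes by subtype label in normal air, 1 panel per gene, with a logarithmic axis of CPM + 1. Each point is the summed cells of 1 mouse (circles female, triangles male; colours are days, bars are medians over mice; the 13 Car4- cells of the E18.5 female mouse are left out), and the panels show Cyp4b1 highest in Car4+ capillaries, Fabp4 and Fabp5 high in venous EC and Pparg mainly in lymphatic EC.

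Aqp1 was measured in every subtype after birth and was low in the embryonic label. Nonproliferative embryonic EC at E18.5 had 83.9 CPM in the female and 66.8 in the male mouse (75.4 ± 12.1, SD, n = 2). Car4- capillaries at P1 had 1052 and 518 CPM (785 ± 378). The 2 groups did not overlap, and the lower P1 mouse was several times above the higher embryonic one. The fitted difference was 3.43 ± 0.50 (log2, SE), with an adjusted p of 0.00497 in edgeR's quasi-likelihood fit. At a thinned depth, 112 of 306 embryonic cells had an Aqp1 read (36.6%, 95% Clopper-Pearson interval 31.2 to 42.3). Over all ages in normal air, 974 of 1174 Car4- cells did (83%, 80.7 to 85.1), and at P1 the shares were 88.9% in the female and 89.3% in the male mouse.

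The embryonic and the Car4- label differ in age as well as in name, and the effects of age and label cannot be told apart in that comparison. Labels that span birth gave the following values for Aqp1. Arterial EC I had 290.0 and 285 CPM at E18.5 and 1413 and 688 at P1, without overlap. Proliferative EC had 131 and 48.3 CPM at E18.5 and 471 and 378 at P1, again without overlap. Venous EC had 493 and 188 CPM at E18.5 and 1142 and 466 at P1, so the lower P1 mouse fell below the higher E18.5 mouse. Among Car4+ capillaries, a label with at least 4 cells from P1 on, Aqp1 was 1002 and 943 CPM at P1, 583 and 387 at P7 and 619 and 463 at P21.

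After birth Aqp1 differed between the mice of a group as much as between ages in Car4- capillaries. The female mouse was above the male mouse at each age, with 1052 against 518 CPM at P1, 767 against 446 at P7 and 1206 against 566 at P21. Under hyperoxia the order was the other way, with 212 CPM in the female and 376 in the male mouse. The highest single value was in venous EC of the P21 female mouse, 3046 CPM in 13 cells, against 495 in the 4 cells of the P21 male mouse.

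Under hyperoxia Aqp1 was lower than in normal air at P7 in 4 of the 4 classes that could be fitted, and no difference passed the threshold. In Car4- capillaries it was 212 and 376 CPM against 767 and 446 (294 ± 116 against 607 ± 227, n = 2 each), a difference of -1.07 ± 0.47 (log2, SE; edgeR adjusted p = 0.887). In Car4+ capillaries it was 321 and 283 CPM against 583 and 387 (-0.91 ± 0.43). In venous EC it was 257 and 209 CPM against 859.6 and 507 (-1.57 ± 0.63), and in proliferative EC 228 and 164 CPM against 477 and 335 (-1.07 ± 0.50). The treated mice lay below both normal-air mice in each of these classes, and arterial EC I had 759 and 498 CPM against 1306 and 1342. The 4 classes share their mice and are not 4 separate observations. The male mice of both P7 groups were sequenced in the same run, and within that pair the log2 ratio of CPM + 1 was -0.40 in Car4-, -1.34 in Car4+, -1.28 in venous and -1.14 in proliferative EC. Ratios of such pairs, here and below, use the CD31-gate cells of the shared run alone. For Car4+ capillaries of the P7 male mouse these are 18 cells with 717 CPM, while all 24 of its cells had 387.

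Cd36 marked both kinds of alveolar capillary and was highest at P21 when the cells of all sort gates were summed. In Car4- capillaries it was 1145 and 577 CPM at P1, 1384 and 923 at P7 and 2918 and 3283 at P21 (3101 ± 258, n = 2). Both P21 mice lay above every younger mouse. The P21 to P7 difference was 1.55 ± 0.41 (log2, SE), with an edgeR adjusted p of 0.184. In Car4+ capillaries Cd36 was 602 and 318 CPM at P1, 1643 and 930.2 at P7 and 1692 and 3617 at P21. There P7 was above P1 by 1.62 ± 0.51 (adjusted p = 0.73) and P21 above P7 by 1.05 ± 0.50 (adjusted p = 0.858), with the lower P21 mouse close to the higher P7 mouse.

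Label and age move together in Car4- capillaries: 268 of the 272 cells of the P21 female mouse and 265 of the 268 of the P21 male mouse were Late, while the P7 cells were mostly Early, so they cannot be told apart in any P21 difference. The P21 value of Cd36 also moved with the sort gate. Car4- cells of the mesench gate had 4899 CPM in the female and 4284 in the male mouse at P21, and CD31-gate cells of the same mice had 2507 and 2589. In Car4+ cells the mesench gate gave 2923 and 4835 CPM and the CD31 gate 1445 and 1997. CD31-gate Car4+ cells of P7 had 1753 CPM in the female and 836 in the male mouse, so P21 and P7 overlapped in that gate. In the CD31 gate alone, the P21 and P7 male mice, which shared a run, had 2589 and 990.4 CPM in Car4- capillaries, a log2 ratio of 1.39. The gates of a mouse were also sequenced in different runs, and the part of gate and run in the level was not tested.

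Cd36 was lower in venous and lymphatic EC than in Car4- capillaries. Venous EC lay below Car4- capillaries in 9 of 9 mice, with a median log2 ratio of -2.15 (range -3.53 to -0.86). Lymphatic EC lay below them in 5 of 5 mice, and arterial EC I below them in 5 of 7 and above in 2, among these the hyperoxia female mouse with 1214 against 814 CPM. The 2 arterial labels differed: arterial EC I ranged from 39.6 to 1378 CPM in normal air, and arterial EC II from 8.52 to 104, below arterial EC I in 7 of 7 mice. At birth, Cd36 was 298 and 227 CPM in nonproliferative embryonic EC and 1145 and 577 in Car4- capillaries of P1, a difference of 1.76 ± 0.42 (edgeR adjusted p = 0.107). Under hyperoxia, Car4- capillaries had 814 and 721 CPM, below both normal-air P7 mice (-0.62 ± 0.40).

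Lpl, whose product works on the vessel wall after release, was found in Car4- and hardly in Car4+ capillaries. In Car4- capillaries it was 153 and 218 CPM at P1, 138 and 223 at P7, 302 and 219.6 at P21, and 161 and 134 after hyperoxia. In Car4+ capillaries it was 28 and 0 CPM at P1, 2.74 and 0 at P7, 23 and 0 at P21, and 0 and 7.86 after hyperoxia. Car4+ lay below Car4- in 8 of 8 mice, with a median log2 ratio of CPM + 1 of -6.28 (range -7.81 to -2.40). At a thinned depth, 420 of 1174 Car4- cells in normal air had an Lpl read (35.8%, 33 to 38.6) and 16 of 276 Car4+ cells did (5.8%, 3.35 to 9.24). Proliferative EC had a similar share to Car4- cells, 116 of 324 (35.8%, 30.6 to 41.3), and 50.2 to 189 CPM in normal air. Arterial EC I had 0.215 to 240.5 CPM, and its lowest mouse was the P1 male. From E18.5 nonproliferative EC (39.8 and 76 CPM) to P1 Car4- capillaries, the difference was 1.79 ± 0.45 (edgeR adjusted p = 0.141).

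Gpihbp1, which anchors lipoprotein lipase on capillaries, had the same order between these classes as Lpl. It was 1481 to 3278 CPM over the normal-air mice of P1 to P21 in Car4- capillaries and 156 to 333 in Car4+ capillaries. In single cells thinned to 50000 reads, 505 of 523 Car4- cells with an Lpl read also had a Gpihbp1 read (96.6%), against 88.4% of those without. The thinned cells are of equal depth but share mice, and the shares are a description.

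Fabp4 and Fabp5, the cytosolic carriers, were high in venous EC and in further subtypes that differed between the carriers. In venous EC, Fabp4 was 80.3 and 54.5 CPM at E18.5, 404 and 113 at P1, 398 and 533 at P7 and 473 and 696 at P21. Both E18.5 mice lay below every later mouse, and 4 cells made up the P21 male sum. Fabp5 was 490.4 and 289 CPM at E18.5, 667 and 361 at P1, 533 and 769.9 at P7 and 253 and 387 at P21, and its ages overlapped. Venous EC were above Car4- capillaries in 9 of 9 mice for both genes, with median log2 ratios of 7.17 for Fabp4 and 4.69 for Fabp5.

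Fabp4 was also high in lymphatic EC, with 360.0 CPM in the E18.5 male mouse, 184 and 438 at P1 and 28.6 in the 5 cells of the P7 male mouse. In arterial EC II, sums of 4 to 9 cells, Fabp4 was 168 and 224 CPM at E18.5, 0 and 226 at P1 and 0 in the P7 male mouse. Fabp5 was high there too, with 675 and 119 CPM at E18.5, 140.1 and 442 at P1 and 158 in the P7 male mouse. Both carriers were nearly absent from Car4+ capillaries, where Fabp4 was at most 0.259 CPM and Fabp5 at most 0.827 CPM in normal air. At a thinned depth, a Fabp4 read was found in 69 of 148 venous cells (46.6%, 38.4 to 55), 35 of 62 lymphatic cells (56.5%, 43.3 to 69), 7 of 33 arterial EC II cells (21.2%, 8.98 to 38.9), 10 of 1174 Car4- cells (0.852%) and 2 of 276 Car4+ cells (0.725%). A Fabp5 read was found in 106 of 148 venous cells (71.6%, 63.6 to 78.7) and 1 of 276 Car4+ cells (0.362%). Among 201 venous cells of all groups, 71 of 91 with Fabp4 also had Fabp5 (78.0%), against 71.8% of those without Fabp4.

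Hyperoxia left Fabp4 at 144 and 232 CPM in venous EC, below both normal-air P7 mice (398 and 533), a difference of -1.28 ± 0.64 (edgeR adjusted p = 1). Fabp5 was 257 and 529 CPM there, against 533 and 769.9 (-0.69 ± 0.57). In Car4- capillaries a large fitted value for Fabp4 (-8.56 ± 2.82) rests on levels of 7.05 and 1.44 CPM in normal air and 0.0105 and 0.0103 after hyperoxia, so it depends on few cells and is no measure of size. The lymphatic EC of the hyperoxia mice had 260.3 CPM of Fabp4 in 14 cells and 0 in 6 cells.

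**Figure D2:**
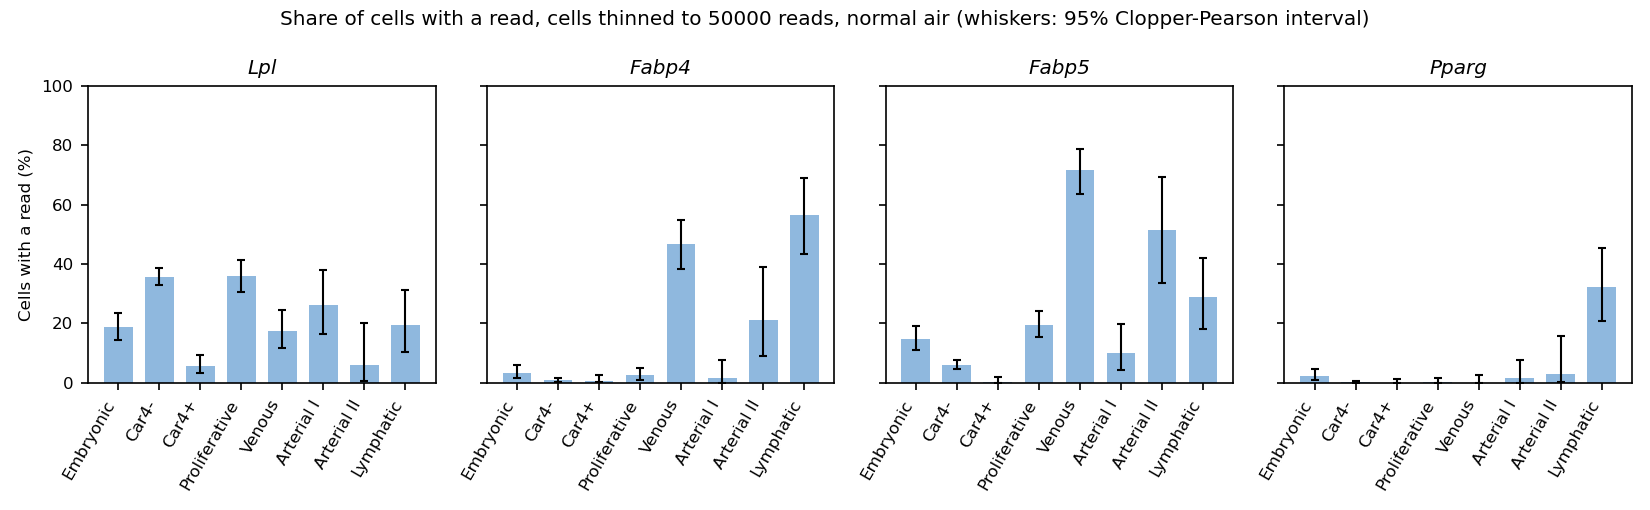
Share of cells (percent) with a read of Lpl, Fabp4, Fabp5 and Pparg by subtype in normal air, after thinning each cell to 50000 reads. Bars are shares over the cells of all mice, whiskers are 95% Clopper-Pearson intervals for counting error only, and the panels show Fabp4 in 46.6% of venous and 56.5% of lymphatic cells and Pparg in 32.3% of lymphatic cells and 0 of 148 venous cells.

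Pparg was found mainly in lymphatic EC. The lymphatic sums had 79.5 CPM in the E18.5 male mouse, 31.4 and 26.2 at P1, 40.4 in the P7 male mouse, and 26.1 and 29.5 after hyperoxia. Each lymphatic sum was above the venous sum of its mouse in 6 of 6 mice and above the Car4- sum in 5 of 5. Venous EC, the class with the most Fabp4 per kilobase, had 0 Pparg reads in 10 of 10 mice. Thinned, 20 of 62 lymphatic cells in normal air had a read (32.3%, 20.9 to 45.3), and 3 of 1174 Car4- cells did (0.256%). A count of 0 in 150 venous cells of normal air allows a share of up to 2%.

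The level of Pparg rested on few cells. The highest sum outside lymphatic EC, 51.9 CPM in arterial EC II of the E18.5 male mouse, came from 1 cell. It had 4048 reads in 69 of the 2931 cells, and 29 cells held 95.3% of them. In the lymphatic sum of the hyperoxia male mouse a single cell held 100% of the reads. In Car4+ capillaries the 2 hyperoxia mice had 3.01 and 14.8 CPM, against at most 0.0598 in normal air, and in each of them 1 cell carried all of the reads. Within lymphatic EC, 12 of 40 cells with Fabp4 also had Pparg (30%), against 26.2% of cells without Fabp4. Of the marker list for alveolar macrophages, which express Pparg, the lymphatic sums of at least 8 cells held 248 to 400 CPM. Of this Mrc1 made up 247 to 390, Cd68 up to 10.3, Lyz2 up to 7.68, Ear2 up to 2.81 and Ptprc up to 0.144. The other listed genes, Marco, Chil3 and Ctss, were at 0 there. The part of macrophage transcripts in the Pparg level was not tested. The 4 measured adipocyte markers (Plin1, Cidec, Lipe and Cfd) summed to 0 to 79 CPM over the subtypes.

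Cyp4b1 had the highest level of the 8 genes, in Car4+ capillaries, and was lower in Car4- capillaries of the same mouse each time. In Car4+ capillaries it was 2659 and 1431 CPM at P1, 4513 and 4658 at P7, 4874 and 8306 at P21, and 5310.2 and 5506 after hyperoxia. In Car4- capillaries it was 586 and 349 CPM at P1, 518 and 471 at P7, 1355 and 1967 at P21, and 1821 and 1610.4 after hyperoxia. Car4+ lay above Car4- in 8 of 8 mice, with a median log2 ratio of 2.06 (range 1.54 to 3.30). A read was found in 273 of 276 Car4+ cells (98.9%) and 802 of 1174 Car4- cells (68.3%) of normal air at a thinned depth. Lymphatic EC had the lowest levels, 5.72 to 56.8 CPM in normal air.

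The age at which Cyp4b1 first lay above all younger mice was P7 in Car4+ and P21 in Car4- capillaries. In Car4+ capillaries both P7 mice lay above both P1 mice (1.35 ± 0.44, log2, SE; edgeR adjusted p = 0.73), and both P21 mice in turn lay above both P7 mice (0.46 ± 0.43; adjusted p = 0.98). In Car4- capillaries P1 and P7 overlapped, and both P21 mice lay above them (1.88 ± 0.39 for P21 to P7; adjusted p = 0.0885). The P21 difference was smaller in Car4+ than in Car4- capillaries by 1.42 ± 0.35 as an interaction term, unadjusted p = 0.00413 and adjusted p = 1. At P21 the mesench gate gave 7629 and 9313 CPM in Car4+ cells against 4322 and 6966 in the CD31 gate, and 1317 and 2247 against 1368 and 1779 in Car4- cells. CD31-gate Car4+ cells of P7 had 4377 CPM in the female and 4181 in the male mouse. In that gate the P21 female mouse therefore lay below the P7 female mouse, and the 2 ages overlapped. The pair of male mice that shared a run had 1779 and 496 CPM in Car4- capillaries at P21 and P7, a log2 ratio of 1.84.

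Under hyperoxia Cyp4b1 was higher in Car4- capillaries, at 1715 ± 149 CPM against 495 ± 32.9 in normal air (n = 2 each), and the treated mice lay within the range of the P21 mice. The difference was 1.76 ± 0.39 (log2, SE; edgeR adjusted p = 0.391), and 1.70 in the male pair of 1 run. In Car4+ capillaries the means were 5408 ± 138 CPM after hyperoxia and 4586 ± 103 in normal air, with both treated mice above both normal-air mice and a log2 ratio of 0.40 in the male pair. The fitted difference there was -0.03 ± 0.43, against the sign of the means, so no direction is read from it. The difference between these effects was -1.75 ± 0.35 as an interaction term, unadjusted p = 0.00131 and adjusted p = 1 over all genes; with cells thinned to equal depth it was -1.58, adjusted p = 0.00638. Proliferative EC had 1153 and 1112 CPM after hyperoxia and 506 and 655 in normal air (0.96 ± 0.56), without overlap.

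The higher level in Car4- cells was seen across the cells and not in a few of them. At thinned depth the share of Car4- cells with a Cyp4b1 read was 49.5% and 70.8% in the P7 normal-air mice and 92.2% and 86.4% in the hyperoxia mice. The median cell had 0 and 280 CPM in normal air and 1400 and 980 CPM after hyperoxia. The P7 female mouse is the one with 44 Late cells of few genes, and with the Early label alone the difference was 1.76 as well. Markers of Car4+ cells, whose Cyp4b1 is high, were summed as well. Their 5 genes had 363 and 780 CPM in Car4- cells of normal air and 818 and 890 after hyperoxia. Of these, Apln differed by 1.99 ± 0.49 (edgeR adjusted p = 0.596). The others differed by less than their SE: Car4 by 0.28 ± 0.55, Ednrb by -0.33 ± 0.56, Tbx2 by 0.57 ± 0.62 and Fibin by 0.28 ± 1.46. The part of these markers in the result was not tested.

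**Figure D3:**
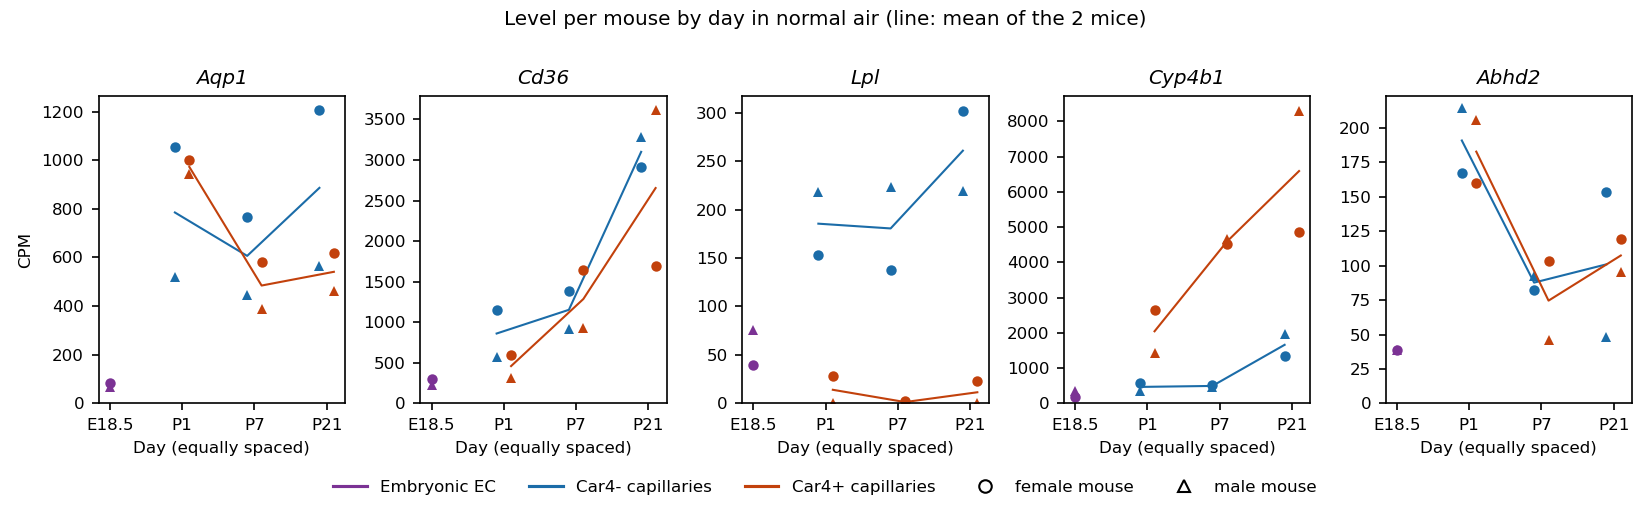
Levels of Aqp1, Cd36, Lpl, Cyp4b1 and Abhd2 in CPM on a linear axis, over E18.5, P1, P7 and P21 in normal air with days equally spaced, in nonproliferative embryonic EC, Car4- and Car4+ capillaries. Points are mice (circles female, triangles male), lines join the means of 2 mice, and the 13 Car4- cells of the E18.5 female mouse are left out. With the cells of all sort gates summed, the P21 mice are highest for Cd36 and Cyp4b1 while embryonic EC are lowest for Aqp1 and Abhd2.

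Abhd2, the lipid hydrolase, resembled Aqp1 around birth at a lower level. Nonproliferative embryonic EC had 39.1 and 38.7 CPM, and Car4- capillaries at P1 had 168 and 214 (191 ± 33.1, n = 2), without overlap. The difference was 2.41 ± 0.50 (log2, SE; edgeR adjusted p = 0.0462). The call was lost with sex as a block (0.0617), in the CD31 gate alone (0.0541) and without any of several single mice, as given below. Labels that span birth also had higher values at P1: proliferative EC went from 30.4 and 32 CPM to 109 and 201, and venous EC from 27.9 and 7.48 to 86.4 and 85.2. Arterial EC I had 57.8 and 32.6 CPM at E18.5 and 104 and 57.9 at P1, where the lower P1 mouse only just exceeded the higher E18.5 mouse.

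After P1 Abhd2 was lower again. Car4- capillaries had 82.6 and 92.8 CPM at P7, below both P1 mice (-1.25 ± 0.48; edgeR adjusted p = 0.406), and 153 and 48.5 at P21. Car4+ capillaries had 159.8 and 206 CPM at P1 and 103 and 45.9 at P7. After hyperoxia Abhd2 was 113 and 168 CPM in Car4- capillaries, above both normal-air P7 mice (0.66 ± 0.48), and 94.8 and 112 in Car4+ capillaries, which overlapped the normal-air mice.

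Set against all genes, the counts of called members were as follows, and nothing is read from them where the contrast helped to select the genes. From embryonic EC to Car4- capillaries of P1, 2 of the 8 genes (Aqp1 and Abhd2) were called higher in the edgeR fit at an adjusted p under 0.05, where 0.494% of 14967 genes were called (65 higher, 9 lower). Both calls were lost without either E18.5 mouse, where the remaining one is assumed to vary like the other groups. Without the female E18.5 mouse the log2 difference was 3.50 for Aqp1 (adjusted p = 0.0555) and 2.33 for Abhd2 (0.262), and without the male 3.31 (0.0871) and 2.44 (0.272). The call of Abhd2 was also lost without the P1 male mouse (0.226), a P7 mouse (0.1 for the female, 0.0953 for the male), a hyperoxia mouse (0.0613 and 0.0624) or the cells outside the CD31 gate (0.0541). At an unadjusted p under 0.05, 6 of 8 passed against 9.42% of all genes. DESeq2 called 4.06% of genes and 4 of the 8, adding Cd36 (adjusted p = 0.000626) and Lpl (0.00796). In the female mice of E18.5 and P1, which shared a run, the log2 ratio was 3.65 for Aqp1, 2.09 for Abhd2, 1.96 for Cd36 and 1.95 for Lpl.

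Fabp5, Fabp4 and Pparg had lower values in Car4- capillaries of P1 than in embryonic EC. Fabp5 was 59.3 and 46.6 CPM in nonproliferative embryonic EC and 14 and 13.2 in Car4- capillaries of P1 (-1.87 ± 0.70; edgeR adjusted p = 0.42). Fabp4 was 17.9 and 31 CPM against 0.0486 and 7.96, and Pparg 2.09 and 3.53 against 0 and 0.0403. Cyp4b1 was 173 and 352 CPM against 586 and 349, and these groups overlapped. The median log2 difference of the 8 genes was 1.32, near 0 over all genes, and 5 were higher and 3 lower.

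In Car4- capillaries none of the 8 genes was called between P1 and P7, where 0% of 14660 genes were called; 1 of 8, Abhd2, had an unadjusted p under 0.05, against 11.3% of all genes, and DESeq2 called 398 genes and none of the 8. Between P7 and P21, 0.266% were called (26 higher, 13 lower) and none of the 8, although all 8 had positive fitted differences, as 52.7% of all genes did. There 2 of 8 had an unadjusted p under 0.05 (10.5% of all genes), and DESeq2, which called 5.01%, called Cd36 (adjusted p = 0.00382) and Cyp4b1 (0.000108). Between hyperoxia and normal air, 0.0136% were called (1 higher, 1 lower) and none of the 8; 3 of 8 had an unadjusted p under 0.05 (5.52% of all genes), and DESeq2, which called 1.28%, called Cyp4b1 (0.000614) and Fabp4 (0.0017).

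In Car4+ capillaries 7 of the 8 genes passed the filter on low counts and Fabp4 did not. None was called from P1 to P7 (0% of 12284 genes), from P7 to P21 (0.00814%, 1 gene lower) or under hyperoxia (0%). At an unadjusted p under 0.05, Cd36 and Cyp4b1 passed from P1 to P7, against 6.28% of all genes, and none from P7 to P21, against 5.24%. Under hyperoxia Pparg alone passed, on the reads of 1 cell in each treated mouse, against 6.16%. Under hyperoxia proliferative and venous EC, where Pparg did not pass the filter, had 0% called, of 13102 and 12326 genes, with 339 and 331 genes at an unadjusted p under 0.05 and 114 and 93 by DESeq2. Aqp1 in venous EC was the 1 member at an unadjusted p under 0.05 there, against 2.69% of genes in venous EC. The interaction terms called 0% of genes, with Cyp4b1 the 1 member at an unadjusted p under 0.05 in each, against 3.31% of all genes for hyperoxia and 3.88% for P21. Where edgeR called 0 genes in Car4+ capillaries, 772 genes from P1 to P7 and 757 under hyperoxia had an unadjusted p under 0.05, and DESeq2 called 259 and 268.

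**Figure D4:**
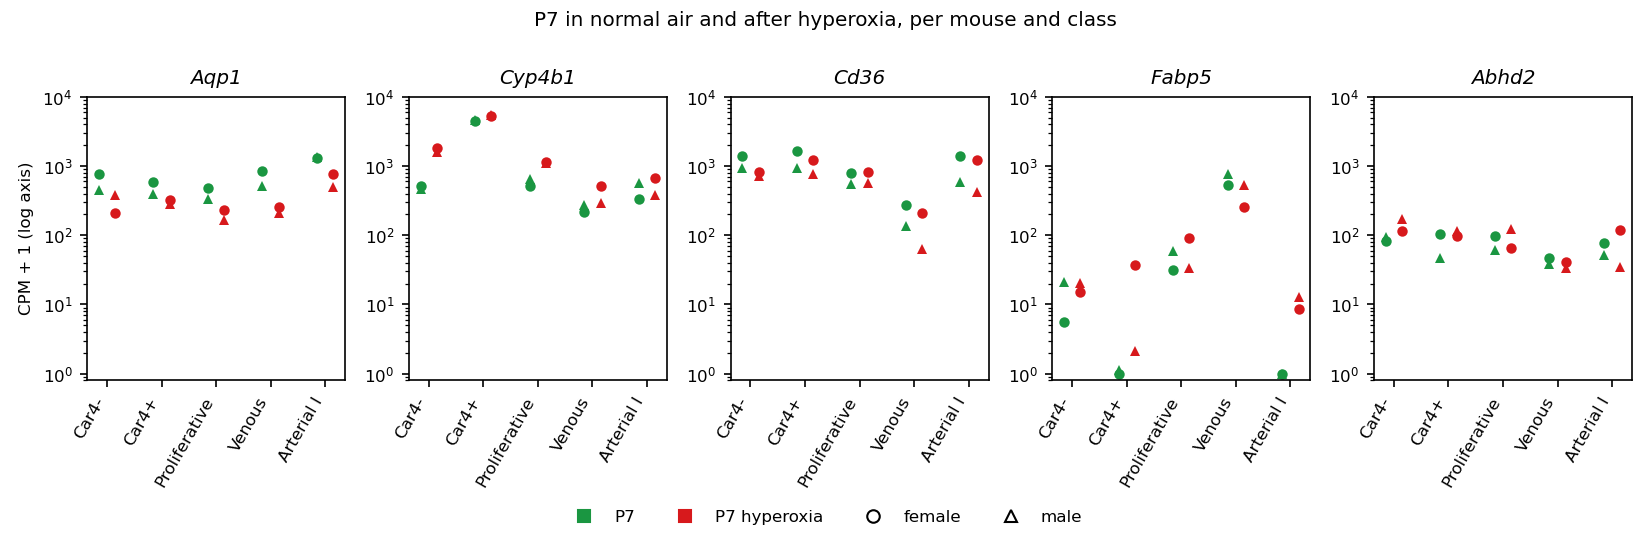
Levels of Aqp1, Cyp4b1, Cd36, Fabp5 and Abhd2 at P7 in normal air (green) and after hyperoxia (red) in 5 classes, on a logarithmic axis of CPM + 1. Each point is a mouse (circles female, triangles male); the Aqp1 points after hyperoxia lie below those in normal air in each class drawn, and those of Cyp4b1 lie above in Car4- capillaries and by less in Car4+ capillaries.

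Sex was the contrast that played no part in the choice of genes. No sequencing run held CD31-gate cells of both sexes, so the effects of sex and run cannot be told apart in this contrast. In Car4- capillaries of 8 mice, with the group as a term, 0 of 8 genes were called in edgeR's quasi-likelihood fit, against 0.0273% of genes, and 0 of 8 had an unadjusted p under 0.05, against 5.85%; DESeq2 also called 0 of 8. Male minus female differences were -0.41 ± 0.32 (log2, SE) for Aqp1, -0.27 ± 0.26 for Cd36, 0.24 ± 0.27 for Lpl, 0.78 ± 0.53 for Fabp5, -0.01 ± 0.26 for Cyp4b1 and 0.01 ± 0.36 for Abhd2. Fabp4 (-1.42 ± 2.43) and Pparg (1.32 ± 3.26) had too few reads there to bound a difference.

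Other genes of the same pathways were followed through 5 lists, which were written with earlier results known. None of their measured genes outside the 8 was called in any of the 12 comparisons by edgeR. In the list of fatty acid uptake, with 15 of 16 genes tested in Car4- capillaries, 8 were higher and 7 lower at P21 than at P7 (median log2 difference 0.02, against 0.06 over all genes). The most abundant of its genes beside Gpihbp1 was Scarb1, a receptor for lipoproteins, with 178 to 360.1 CPM in Car4- capillaries of normal air. In the list of PPAR and RXR factors and targets, 11 genes were higher and 5 lower after hyperoxia (median 0.47, against -0.01). Its most abundant gene, the sterol exporter Abcg1, was 157 and 349 CPM at P7, 112 and 82.7 at P21, and 409 and 505 after hyperoxia in Car4- capillaries.

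In the list of lipid droplets and neutral lipid hydrolysis, 7 genes were higher and 7 lower at P21 than at P7 in Car4- capillaries. Hilpda, a small protein of lipid droplets that hypoxia induces, was 352 and 406 CPM at P7, 1268 and 1184 at P21 (1.81 ± 0.44; edgeR adjusted p = 0.148), and 178 and 285 after hyperoxia (-0.73 ± 0.43). Its P21 mice lay above every younger mouse and its hyperoxia mice below every normal-air mouse from P1 on in Car4- capillaries. Other classes differed in direction under hyperoxia: Hilpda changed by -0.61 ± 0.58 in Car4+ capillaries, 1.39 ± 0.57 in proliferative EC and 0.45 ± 1.30 in venous EC. In the list of aquaporins and ion transport, 6 genes were higher and 5 lower at P21 than at P7 (median 0.42), and after hyperoxia 7 were higher and 4 lower. Car2, a carbonic anhydrase of the cytosol, was 837 and 947 CPM at P7 and 1043 and 1103 after hyperoxia in Car4- capillaries.

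The list of cytochromes and omega-hydroxylation, which Cyp4b1 heads, was the one with most of its genes higher at P21. Of 9 genes tested in Car4- capillaries, 7 were higher and 2 lower than at P7, with a median log2 difference of 1.75 against 0.06 over all genes, and 6 had an unadjusted p under 0.05, against 10.5% of all genes. In Car4+ capillaries 7 of 8 were higher (median 1.56, against 0.05 over all genes), as 51.8% of all genes were, and 3 had an unadjusted p under 0.05, against 5.24% of all genes. From P1 to P7 some of these genes had been lower in Car4+ capillaries, among them Por (below), and others higher. The count is therefore not one of genes above their P1 level. Ephx1, the microsomal epoxide hydrolase, was 22.5 and 12.5 CPM at P1, 47.1 and 87.2 at P7, 243 and 175 at P21, and 298 and 449 after hyperoxia in Car4- capillaries. Like Cyp4b1 it was higher both at P21 (1.75 ± 0.42; edgeR adjusted p = 0.146) and after hyperoxia (2.46 ± 0.43; adjusted p = 0.132), and these comparisons share the P7 normal-air mice. Cyb5a, an electron donor to cytochromes, was 459.5 and 558 CPM at P7 and 757 and 998 at P21. Por, the reductase that supplies these enzymes, was 56 and 123 CPM at P7 and 74.5 and 66.3 at P21 in Car4- capillaries, with overlap. In Car4+ capillaries Por was 132 and 53.2 CPM at P1, 26.2 and 18.8 at P7 and 117 and 56.2 at P21, and the P7 mice lay below the others (-1.87 ± 0.78 from P1 to P7 and 1.86 ± 0.78 from P7 to P21; edgeR adjusted p = 0.73 and 0.858).

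Over 50 sums of a mouse and a subtype, which share mice, runs and depth, each gene was set beside 7065 others by the Pearson correlation of log2(CPM + 1), as a description with no p. Among the 8 genes the highest values were 0.69 for Aqp1 and Abhd2, 0.68 for Cd36 and Cyp4b1, 0.65 for Fabp4 and Fabp5 and 0.57 for Cd36 and Abhd2; Cyp4b1 and Fabp5 had the lowest, -0.56. The 3 genes most like Cyp4b1 were Tspan13 (0.90), Tmem204 (0.85) and Cd34 (0.80). Those most like Cd36 were Dpp4 (0.82), Rasgef1a (0.82) and Tmem100 (0.81). For Aqp1 they were Leng8, Gnaq and Tapbp (0.75 each), and for Abhd2 they were Grasp (0.78), Jup (0.76) and Rara (0.74). Fabp4 was most like Cpe (0.84), Mgat4a (0.83) and Ctsh (0.79), and Fabp5 most like Procr (0.83), Chn2 (0.77) and Tnfaip8 (0.77). Lpl was most like Mcf2l (0.73), Glp1r (0.69) and C2cd2 (0.68), and among the genes most like Pparg were Reln (0.85) and Ptx3 (0.85), of which Reln is among the lymphatic markers listed for these cells.

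In single Car4- cells at thinned depth, 1006 of 1339 cells with a Cd36 read also had a Cyp4b1 read (75.1%), against 42.5% of the cells without Cd36. A Car4 read was found in 33.7% of Car4- cells with Cyp4b1 and 17.9% of those without. Of Car4- cells with an Aqp1 read, 94.5% had a Cd36 read, against 79.5% of those without. These shares pool mice and ages, and the cells with few genes noted above are among those without a read.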

How the data were processed

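The deposited table holds whole-number read counts per gene and cell, which the authors made from full-length plate libraries without molecular identifiers; alignment with STAR 2.5.2b and counting with HTSeq 0.10 are named in the submitters' processing notes. These notes name a human genome build for mouse cells, so the build of the counts is uncertain. Columns of no listed sample numbered 0. The subtype labels, sex, age, treatment and mouse names are the submitters'.

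Counts were summed per mouse and class (at least 8 cells per mouse for tests, 4 for levels) and scaled to CPM. Sums were fitted with edgeR 4.0.16 in R 4.3.3 (TMM, filterByExpr, quasi-likelihood F test), all usable groups of a class in 1 model; p-values were adjusted by Benjamini and Hochberg over all genes tested, called under 0.05, and an SE is the log2 difference divided by the root of F. The birth comparison sets embryonic EC against Car4- capillaries. Interaction fits had the mouse as a term. Shares of cells were taken after thinning each cell to 50000 reads, which left out 11 cells; intervals and the limit for a count of 0 (3 cells) cover counting error only. Steps were tested on simulated data.

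The 8 genes, the 5 pathway lists, the marker lists and the tests were chosen with earlier results of these data known. Named beside the 8 are the 3 most abundant genes of a list, any list gene called, and the 3 genes most correlated with each of the 8 (mean of at least 20 CPM); 1 of these genes is not reported here. The cell markers in the text are from these lists. Alternatives were DESeq2 1.42.0, RLE normalization, no filter on low counts, the CD31 gate alone, thinned cells, sex as a block and leaving out each mouse; the Early Car4- label alone was added after seeing the data. The genes Adipoq, Aqp4, Aqp8, Cyp4a12a and Cyp4a14 were not used here.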

Additional observations from a re-analysis of the deposited data

How the results depend on the processing

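Over 1208 alternative values of the 90 member differences, 1117 kept their direction or stayed at 0, and 14 gained a call. Only 2 of the 90 differences, Aqp1 and Abhd2 at birth, were called in the main fits. None of the alternatives of these 2 reversed, and 11 of them lost the call. DESeq2 called more genes in each comparison: 398 (Car4- P7 to P1), 692 (Car4- P21), 180 (Car4- hyperoxia), 259, 254 and 268 (Car4+ in the same order), 114 (proliferative), 93 (venous), 572 (birth), 151 (sex), 217 and 285 (interactions with hyperoxia and P21), with 2 members at Car4- P21, 2 under Car4- hyperoxia and 4 at birth. Without the filter on low counts the counts were 1, 77 (1 member), 7, 48, 60, 27, 10, 13, 7 for sex, and 6 and 6. Thinned cells gave 85 (1 member) at Car4- P21, 9 under Car4- hyperoxia, 16 at Car4+ P21, 1 under Car4+ hyperoxia, 137 (4 members) at birth, 7 for sex, and 14 (1 member) and 3 for the interactions. The CD31 gate alone gave 5 under Car4- hyperoxia, 2 at Car4+ P21, 1 for the hyperoxia interaction and 1 member at birth, and RLE gave 2 at Car4+ P21. The cause of these shifts was not tested.

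Leaving out 1 mouse at a time gave 0 to 26 called genes for Car4- P7 to P1, 1 to 83 for P21 and 0 to 14 for hyperoxia; 0 to 68, 2 to 18 and 0 to 14 in Car4+; 0 to 4 in proliferative and 0 to 9 in venous EC; 28 to 68 at birth; 4 to 6 for sex; and 0 to 4 and 0 to 1 for the interactions. Members called ranged from 0 to 1 at Car4- P21 and from 0 to 2 at birth. At Car4- P21, Cyp4b1 was called without either P1 mouse (edgeR adjusted p = 0.0277 and 0.0251), without the filter (0.0465) and in thinned cells (0.0299). With the Early label alone, birth gave 53 genes with both Aqp1 (0.0105) and Abhd2 (0.0252).

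Same-sex mice of different groups share the label of sex and some share a sequencing run: their deviations correlated between -0.0185 and 0.077, none over 0.1, so they were not treated as pairs. With sex as a block, 2 genes were called at Car4+ P21, and at birth 1 member, Aqp1, since Abhd2 had an adjusted p of 0.0617. With 2 mice a group, the values of Fabp4 and Pparg outside their own subtypes rest on few cells.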

Other observations

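Nonproliferative embryonic EC was also the label of 5 cells of the hyperoxia mice, and 4 of these had an Aqp1 read (80%, 95% Clopper-Pearson interval 28.4 to 99.5), against 46.4% of the 308 cells of that label in normal air, both before thinning. In proliferative venous EC, a label with at least 4 cells in the 2 hyperoxia mice alone, Fabp5 was 418 and 371 CPM and Fabp4 15.8 and 149.9 CPM. Aqp1 was 417 and 294 CPM there, against 257 and 209 in the venous EC of the same mice. A Fabp5 read was found in 10 of the 10 cells of that label at thinned depth.

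In proliferative EC of all groups, 10 of 10 cells with a Fabp4 read also had a Fabp5 read, against 18.4% of the other cells, and in nonproliferative embryonic EC 8 of 13 did, against 13.1%. In lymphatic EC the shares were 42.5% and 9.52%. These cells share mice, and the Fabp4 level of a proliferative sum came mostly from 1 cell: in the P1 female mouse (185 CPM) and the P7 male mouse (137 CPM) 1 cell held 100% of the reads. The Late Car4- cells of the hyperoxia male mouse, 6 cells with few genes, had 318 CPM of Fabp5, 154 of Cyp4b1 and 0 of Lpl, against 12.1, 1647 and 137 CPM in its 126 Early Car4- cells.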
